A study of Mus musculus with 743 samples.

Results

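The Myc, Max and Mxd network was followed in single Schwann cells (SCs) of mouse sciatic nerve at postnatal day 1. The 10 genes Myc, Mycn, Mycl, Max, Mxd1, Mxd3, Mxd4, Mxi1, Mnt and Mlx were taken by name from the 25700 genes of the count table. All mice were C57bl/6J and carried a Cre transgene that labels SCs, a Rosa26 eYFP reporter and a beta-actin DsRed reporter, and eYFP-positive cells were sorted 1 per well into 2 plates. Each plate held cells of 1 male and 1 female mouse of its own, so that the plate was the replicate (n = 2) and the sexes could not be told apart. No cell was treated, and the groups compared here are classes of cells from the same nerves.

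A total of 621 of 743 wells had at least 1500 detected genes and were used, 287 on plate 1 and 334 on plate 2. The classes were chosen by measured values, the levels of 3 genes in counts per 1000000 reads of a cell (CPM, per sum where reads were summed). Cycling cells had a summed level of Mki67 and Top2a of at least 50 CPM (53 and 57 cells on plates 1 and 2), promyelinating cells were not cycling and had at least 50 CPM of the myelin gene Ncmap (59 and 60 cells), and the rest were called other cells (175 and 217 cells). Mki67, Top2a and Ncmap were therefore not tested. The members were named as a family, with class differences of these data already known. The highest summed Mki67 and Top2a level below the threshold was 44.2 CPM and the lowest above it 63.4 CPM, and the corresponding Ncmap levels were 43.3 and 50.3 CPM. A single cycling cell, on plate 2, also passed the Ncmap threshold.

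The classes carried the markers of their names. On both plates, 7 of 7 further cell cycle genes were at least 2-fold higher in cycling cells than in the remaining cells, and 9 of 10 promyelinating markers were at least 2-fold higher in promyelinating cells. Sox10, S100b or Erbb3 was detected in 97.6% and 97.0% of the cells of plates 1 and 2. The summed level of 5 endothelial markers did not exceed 2.91 CPM in any class, and the highest sums were 36.7 CPM for 3 fibroblast-like, 20.7 CPM for 4 immune and 56.8 CPM for 4 mural markers. The defining markers Pdgfra and Ptprc were at 0 reads in every class, and the part of these sums in the members' levels was not tested. Median gene numbers per cell were 3425 and 3477 in cycling, 3690 and 3550 in promyelinating and 2775 and 2819 in other cells. Shares of cells are also given after thinning to 100000 reads, which evens the reads but need not even the gene numbers. The 594 cells with enough reads were thinned, and the 27 shallower cells were left out of the thinned values. For the tests, reads were summed per plate and class (45073128 to 172878954 reads a sum).

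Myc, Mycn and Mycl proteins bind DNA at E-boxes as partners of Max and switch genes of growth and ribosome formation on. The Mxd proteins (Mxd1, Mxd3, Mxd4 and Mxi1) and Mnt compete for Max, bind the same E-boxes and recruit Sin3 corepressors, while Mlx pairs with Mnt, some Mxd proteins and the glucose-sensing Mondo proteins. In many lineages Myc marks dividing cells and most Mxd repressors rise as cells leave the cell cycle, whereas Mxd3 is known for expression in S phase. SCs at birth include dividing cells, immature cells and cells that have taken up a single axon and are about to myelinate.

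The differences that passed the test lay among the repressors. Mxd3 was about 11.2-fold higher in cycling than in other cells (log2 fold change 3.49 ± 0.31, SE, n = 2 plates), and Mxd4 was 4.75-fold lower (log2 fold change -2.25 ± 0.39). Neither Myc, the best known activator, nor Mycn passed the test in this comparison. Between promyelinating and other cells no member passed the test, although Mycn was detected in 35.6% and 33.3% of promyelinating cells against 12.6% and 11.98% of other cells on plates 1 and 2. The class comparisons share the same cells, and the E-box and promoter letters of the members are given first.

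Promoter windows of 250 bases before to 50 bases after the transcription start were taken from RefSeq (build GRCm38.p6), where 9 of the 10 members matched. Myc itself had no window and was not searched. The E-box CACGTG, the site that Myc, Max and Mxd proteins themselves bind, reads the same on both strands. It lay in 4 of the 11 windows of these 9 members, 1 each of Mxd4, Mnt, Mlx and Max, and in 7.15% of 32851 windows over all genes. These stretches of 30 bases are shown because they place a network site beside network genes; the capitals mark the E-box, which began 219, 123, 40 and 3 bases before the start.
Mxd4, chr5:34187912-34187941, minus strand: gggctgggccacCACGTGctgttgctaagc
Mnt, chr11:74830789-74830818, plus strand: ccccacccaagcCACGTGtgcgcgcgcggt
Mlx, chr11:101087238-101087267, plus strand: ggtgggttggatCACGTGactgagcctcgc
Max, chr12:76962234-76962263, minus strand: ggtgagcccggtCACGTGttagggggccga

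Mxd3, the repressor that differed most, held no CACGTG in its window. It held 8 matches of the GC box GGGCGG (either strand), a site of Sp factors. This site occurred in 35.7% of all windows and in 9 of the 11 member windows, from 7 of the 9 members. Among the 9 matched members, which leave out Myc, only Mycn held the E2F-type site TTTNGCGC (either strand). It lay in 1 of the 11 member windows, with 3 matches that partly overlap, against 1.38% of all windows. The stretches below are shown for these 2 genes, with 3 of the GC boxes of Mxd3, of which a pair overlaps, and all E2F-type matches of Mycn in capitals. Such a match describes the letters and not the binding of a factor.
Mxd3, chr13:55329824-55329883, minus strand: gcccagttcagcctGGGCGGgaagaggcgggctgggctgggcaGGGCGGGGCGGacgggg
Mycn, chr12:12941993-12942022, minus strand: gctTTTGGCGCGAAAggcTTTGGCGCctcc

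In levels scaled by gene length (CPM per kilobase of exon, RPKM), which allow genes to be compared, the order of the members differed between classes. In other cells Myc was highest at 24.7 ± 0.029 RPKM (mean ± SD, n = 2), above Mxd4 at 20.1 and Mxd3 at 18.9 RPKM, whose plate values overlapped. This order rests on the length used: per longest transcript in place of the union of exons, Mxd4 (38.8 and 34.8 RPKM) lay above Myc (28.6 and 28.7 RPKM) on both plates, and Mxd3 (29.2 and 22.1 RPKM) overlapped Myc. In promyelinating cells Mxd3 (19.6 RPKM) and Mxd4 (17.3 RPKM) overlapped each other. Their means were above those of Mlx, Myc and Mycn (13.1, 12.4 and 11.3 RPKM), but the plate values of Myc overlapped those of both Mxd genes and the values of Mycn overlapped those of Mxd4. In cycling cells Mxd3 stood at 193 RPKM, with no overlap with Mlx (13.001 RPKM) as the next gene, and Mxd4 stood in the sixth place at 3.89 RPKM. Max, the shared partner of the network, was low in every class, at 1.27, 3.26 and 2.19 RPKM in cycling, promyelinating and other cells (2.36, 6.04 and 4.06 RPKM per longest transcript). Max, Mxd1 and Mxi1 overlap predicted genes by 1319, 2364 and 5146 bases, so that the origin of their reads is uncertain where reads lie in such stretches. Mycl, the third Myc gene, had 1 read in 1 of 621 cells and was left out of the tests by the filter on low counts, so that 9 of 10 members were tested.

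**Figure D1:**
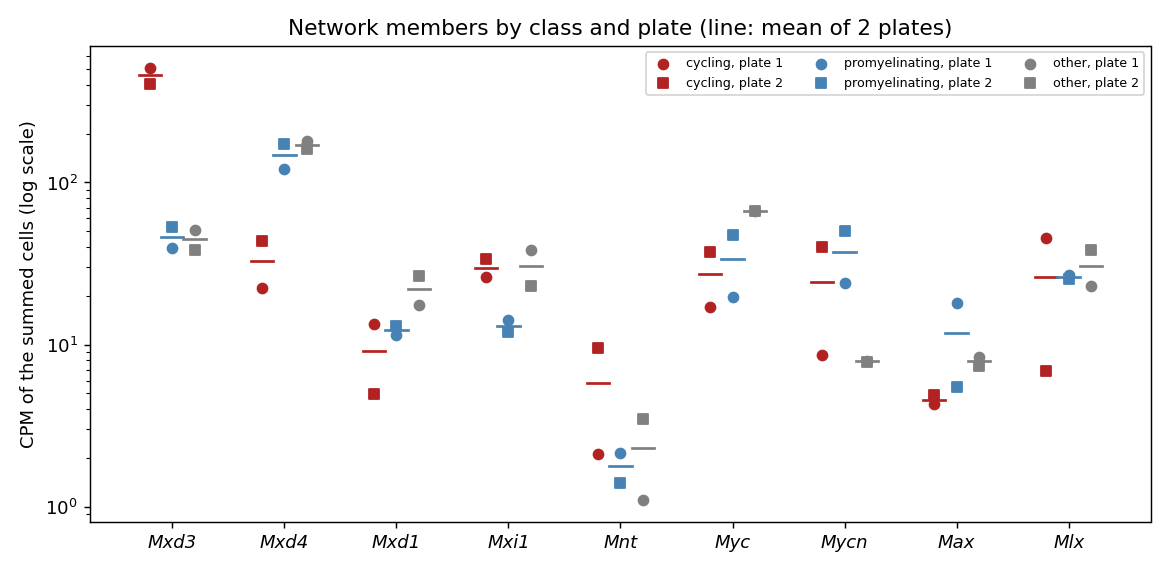
CPM of the 9 tested members (y axis, log scale) in the reads summed per class and plate; circles are plate 1, squares plate 2, and the line is the mean of the 2 plates. The Mxd3 values of cycling cells (404 and 511 CPM) lie above all other points, and the Mxd4 values of cycling cells (22.5 and 43.5 CPM) lie below those of both other classes.

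Mxd3 encodes an Mxd repressor. It had 511 and 404 CPM in cycling cells of plates 1 and 2, 50.8 and 38.5 CPM in other cells, and 39.6 and 53.0 CPM in promyelinating cells. The cycling values did not overlap with the others on either plate, while promyelinating and other cells overlapped. Mxd3 was higher in cycling than in other cells with an adjusted p of 0.00169 (edgeR quasi-likelihood test, Benjamini-Hochberg adjustment over 13289 genes). Against promyelinating cells its log2 fold change was 3.36 ± 0.31 (edgeR adjusted p = 0.000600). It passed the test in all 10 alternatives with a test, with a highest edgeR, DESeq2 or limma adjusted p of 0.00439 against other cells.

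In the reads counted for Mxd3, the difference was one of level per cell more than of the number of cells. The origin of these reads is uncertain, as given below, so the share of cells that express Mxd3 was not tested. Mxd3 reads were found in 90.6% and 84.2% of cycling cells (exact 95% intervals 79.3 to 96.9% and 72.1 to 92.5%), in 67.8% and 76.7% of promyelinating cells, and in 64.6% and 65.0% of other cells. After thinning, these shares were 88.5% and 81.1%, 63.8% and 74.5%, and 60.7% and 61.1%. Among cells with a read, the median Mxd3 level was 495 and 296 CPM in cycling, 45.5 and 71.4 CPM in promyelinating and 76.4 and 65.2 CPM in other cells. Without the 3 cells richest in Mxd3 of each class and plate, cycling cells still had 417 and 310 CPM against 46.7 and 36.2 CPM in other cells.

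The Mxd3 level did not follow small amounts of the genes that set the class. The 9 cycling cells nearest to the threshold, at 50 to 200 CPM of Mki67 and Top2a, held 450 CPM of Mxd3, and the 5 cells just below it, at 20 to 50 CPM, held 58.3 CPM. Other cells with any Mki67 or Top2a read (8 and 7 cells) had 61.9 and 39.6 CPM of Mxd3, and other cells without one had 50.4 and 38.5 CPM.

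Part of the Mxd3 signal cannot be assigned to Mxd3 with certainty. The gene (chromosome 13, 55325168 to 55329823, minus strand, GRCm38) overlaps the end of Prelid1, a mitochondrial lipid transfer gene on the plus strand (55320500 to 55325272), by 105 exonic bases, and neither strand use nor the handling of reads in 2 genes is stated for the counts. No Mxd3 read was found in any of the 102 cells without a Prelid1 read (an upper limit of 2.94% of cells from a count of 0), 9 cycling cells among them, against 436 of the 519 cells with one. The cells without a Prelid1 read were not shallower, with a median of 992905 reads against 848520, although they had fewer genes (2483 against 3075). Over all 621 cells Prelid1 was the gene whose log2(CPM + 1) pattern was most like that of Mxd3 (Pearson r = 0.67 on plate 1 and 0.70 on plate 2, a description over cells that share a plate and differ in depth), ahead of the alpha-tubulin gene Tuba1b (r = 0.45 and 0.31).

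Prelid1 itself did not differ in this way. It had 640 and 542 CPM in cycling, 539 and 602 CPM in promyelinating and 647 and 530 CPM in other cells, which overlapped, and its log2 fold change between cycling and other cells was 0.14 ± 0.21 (edgeR adjusted p = 0.919). Mxd3 reads amounted to 79.9% and 74.4% of Prelid1 reads in cycling cells, but to 7.35% and 8.82% in promyelinating and 7.85% and 7.27% in other cells. More Mxd3 than Prelid1 reads were counted in 14 of 53 and 16 of 57 cycling cells and in 0 of the 511 noncycling cells. In the class sums, Mxd3 of promyelinating and other cells thus stood in a similar ratio to Prelid1, and the ratio of cycling cells lay above it on both plates. Single cells varied, and 78.4 to 88.5% of noncycling cells with a Prelid1 read had an Mxd3 read, by class and plate. How many of the reads were of Mxd3 was not tested. Prelid1 also overlaps the gene Rab24 on the opposite strand, by 1447 bases, so that the origin of the reads counted for Prelid1 is uncertain too.

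**Figure D2:**
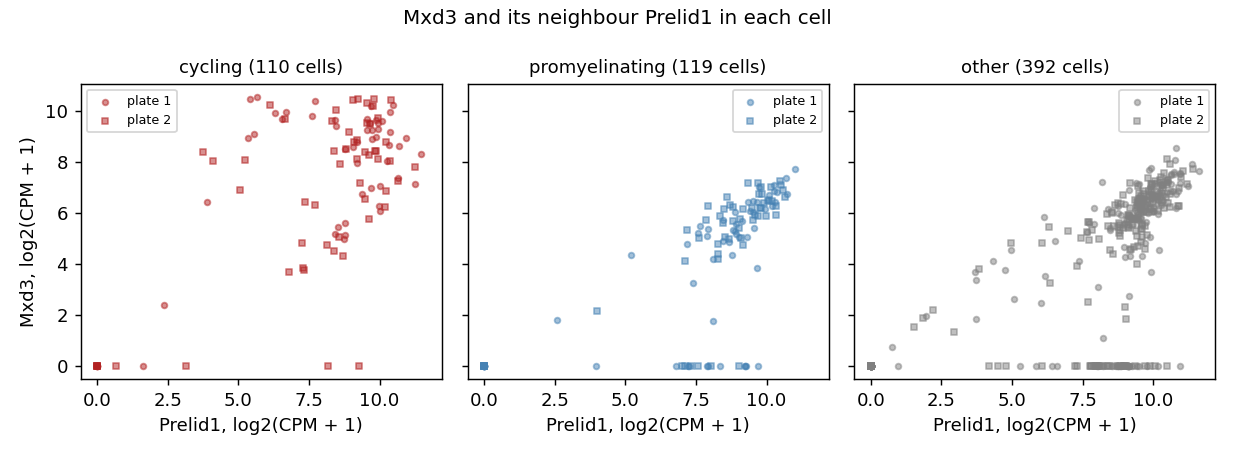
Mxd3 against Prelid1 in each cell, both as log2(CPM + 1), in 110 cycling, 119 promyelinating and 392 other cells; circles are plate 1 and squares plate 2. No cell without Prelid1 (x = 0) has Mxd3, promyelinating and other cells with Mxd3 follow a band in which Mxd3 rises with Prelid1, and many cycling cells lie above that band.

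Mxd4 encodes an Mxd repressor that is usually high in resting and differentiated cells. It had 22.5 and 43.5 CPM in cycling cells, 180 and 161 CPM in other cells, and 122 and 172 CPM in promyelinating cells. Both cycling values lay below all 4 values of the noncycling classes, which overlapped each other. Mxd4 fell in cycling against other cells (log2 fold change -2.25 ± 0.39, edgeR adjusted p = 0.0401) and against promyelinating cells (-2.11 ± 0.39, edgeR adjusted p = 0.0170). Both calls were lost when the 594 cells with enough reads were thinned to 100000 reads (edgeR adjusted p = 0.167 and 0.0694), with the direction kept.

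Mxd4 was also found in fewer cycling cells. Its reads were present in 16.98% and 21.1% of cycling cells (exact 95% intervals 8.07 to 29.8% and 11.4 to 33.9%), in 53.7% and 44.7% of other cells and in 61.0% and 61.7% of promyelinating cells, and the intervals of cycling cells did not meet those of the noncycling classes on the same plate. These intervals cover counting error over the cells of a plate and not the spread between animals, so they are no test of the classes. After thinning, the shares were 13.5% and 16.98%, 46.4% and 40.4%, and 56.9% and 54.5%. The few cycling cells with reads carried unequal amounts: on plate 1, 3 cells held 94.5% of them and a single cell 75.8%. Without the 3 richest cells of each class, 1.31 and 16.5 CPM remained in cycling cells against 146 and 131 CPM in other cells. Mxd4 overlaps the antisense gene Gm42846, so that the origin of its reads by strand is uncertain too.

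The reads of Mxd3 and Mxd4 were also compared within single cells. Cells with Mxd3 but no Mxd4 reads made up 75.5% and 66.7% of cycling, 18.6% and 26.7% of promyelinating and 28.0% and 36.4% of other cells. Reads of both genes were found in 15.1% and 17.5% of cycling, 49.2% and 50% of promyelinating and 36.6% and 28.6% of other cells, against 15.4% and 17.7%, 41.4% and 47.3%, and 34.7% and 29.04% from the product of their single shares. In length-scaled levels, the ratio of Mxd3 to Mxd4 was 81.3 and 33.2 in cycling cells, 1.16 and 1.11 in promyelinating cells and 1.01 and 0.857 in other cells. Per longest transcript the ratio was 60.3 and 24.7 in cycling cells but below 1 in the noncycling classes, at 0.863 and 0.821 in promyelinating and 0.751 and 0.636 in other cells. Mxd3 accounted for 96.3% and 94.1% of the summed level of Mxd1, Mxd3, Mxd4 and Mxi1 in cycling cells, for 48.1% and 48.4% in promyelinating and for 42.3% and 38.4% in other cells. These shares include all reads counted for Mxd3, and their difference between classes was not tested beyond the tests of the single genes.

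**Figure D3:**
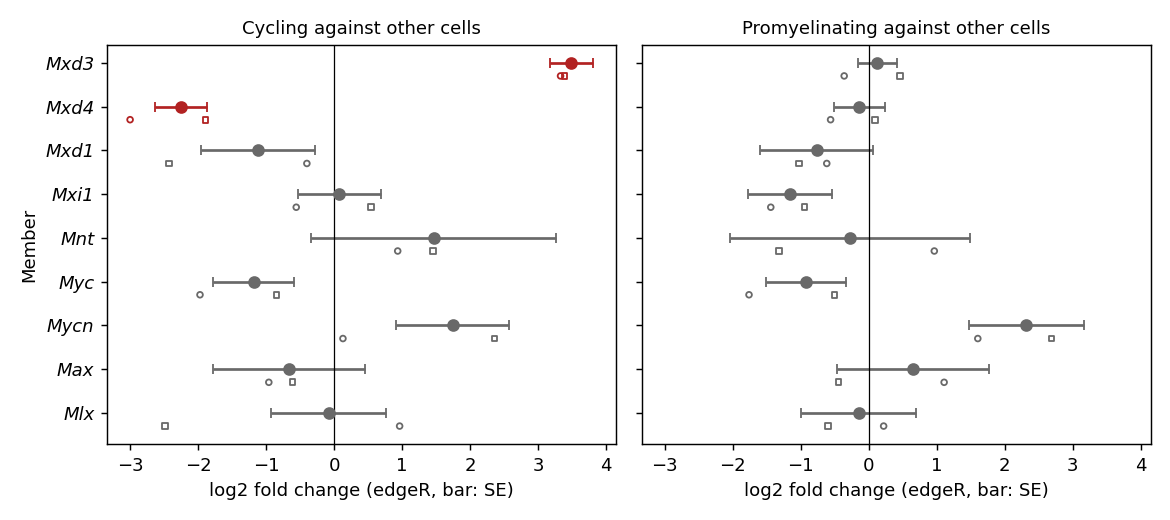
Fitted log2 fold changes (x axis, edgeR, bars are SE) of the 9 tested members in cycling against other cells (left) and promyelinating against other cells (right); open circles and squares below each point are the ratios on plates 1 and 2, and red marks an adjusted p under 0.05. Mxd3 at 3.49 and Mxd4 at -2.25 are the red points of the left panel, and the right panel holds none.

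Mxd1 and Mxi1, the remaining Mxd genes, and Mnt, a broadly expressed repressor, did not pass the test in any class comparison. Mxd1 had 13.3 and 4.95 CPM in cycling, 11.5 and 13.02 CPM in promyelinating and 17.6 and 26.6 CPM in other cells, so that other cells were highest on both plates. Mxi1 had 26.1 and 33.6 CPM in cycling, 14.2 and 12.004 CPM in promyelinating and 38.4 and 23.1 CPM in other cells. The promyelinating values of Mxi1 did not overlap with the others (log2 fold change -1.16 ± 0.61 against other cells, edgeR adjusted p = 0.551), while its share of cells was no lower there (22.03% and 26.7% against 16.6% and 16.6%). Mnt was found in 51 of 621 cells and had between 1.10 and 9.54 CPM in the 6 sums. The few Mxd1 reads of cycling cells were concentrated, with 1 cell of plate 1 holding 93.4% of them.

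Of the 9 tested members 2 passed the test between cycling and other cells, where 0.978% of all 13289 genes tested did. Mxd3 was among the 0.873% of genes called higher (116 genes) and Mxd4 among the 0.105% called lower (14 genes), and the median log2 fold change was -0.08 over the members and -0.07 over all genes. The same genes, Mxd3 and Mxd4, were the 2 members that passed between cycling and promyelinating cells, where 5.93% of all genes did (3.82% higher and 2.11% lower). Between promyelinating and other cells 0 of 9 members passed with edgeR and with DESeq2, where 1.78% of all genes did with edgeR (0.489% higher and 1.29% lower), and 1 member, Mycn, had an unadjusted p under 0.05, as had 11.2% of all genes tested.

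Myc, the activator that is also an immediate-early gene, was highest in other cells. It had 66.9 and 67.0 CPM there, against 17.1 and 37.3 CPM in cycling and 19.8 and 47.3 CPM in promyelinating cells. The values of other cells did not overlap with those of either class, whose own values overlapped. The differences nevertheless did not pass the test, with log2 fold changes of -1.18 ± 0.59 for cycling (edgeR adjusted p = 0.553) and -0.92 ± 0.59 for promyelinating cells (edgeR adjusted p = 0.651), and no alternative called them. Myc reads were found in 36.0% and 36.4% of other cells, 24.5% and 26.3% of cycling cells and 16.9% and 33.3% of promyelinating cells, with overlapping exact 95% intervals. Its median level in cells with a read was between 82.2 and 137 CPM in all classes and plates.

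The level of Myc was also set beside Atf3, a gene of the response to dissociation, among the other cells. Atf3-positive other cells (at least 50 CPM, 49 and 67 cells) had 92.5 and 45.7 CPM of Myc, and Atf3-negative other cells (126 and 150 cells) had 57.9 and 75.7 CPM, so that the direction turned between the plates (log2 fold change 0.13 ± 0.49, edgeR adjusted p = 1.00). The summed level of 8 dissociation response genes was 5842 and 6380 CPM in other cells, 4726 and 7160 CPM in cycling cells and 2205 and 2418 CPM in promyelinating cells, and its part in the class levels of Myc was not tested otherwise. No member (0 of 9) and 0% of 12590 genes passed the edgeR test between these groups (638 at an unadjusted p under 0.05, and 153 with DESeq2 and 8 with limma at an adjusted p under 0.05).

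Mycn, the Myc gene best known from embryonic neural tissue, had another pattern. It had 24.1 and 50.4 CPM in promyelinating cells, 7.92 and 7.82 CPM in other cells, and 8.68 and 40.2 CPM in cycling cells. The promyelinating values did not overlap with those of other cells, while the cycling values spread from one to the other. The log2 fold change between promyelinating and other cells was 2.32 ± 0.85 (edgeR p = 0.0246, adjusted p = 0.334). Only limma on the mean log2(CPM + 1) per cell called it (limma adjusted p = 0.0158), a setting in which each cell weighs the same. In this comparison limma also called many more of all genes than edgeR did, most of them higher in promyelinating cells, as given at the end.

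Mycn was present in a minority of the cells of each class, and in a larger share of promyelinating than of other cells. It was detected in 35.6% and 33.3% of promyelinating cells (exact 95% intervals 23.6 to 49.1% and 21.7 to 46.7%), 12.6% and 11.98% of other cells (8.05 to 18.4% and 7.98 to 17.1%) and 16.98% and 24.6% of cycling cells. After thinning, the shares of promyelinating and other cells were 31.0% and 27.3% against 8.93% and 10.6%. Mycn made up 50.1% and 46.7% of the length-scaled level of the Myc genes in promyelinating cells, 29.5% and 47.0% in cycling cells and 8.89% and 8.77% in other cells. Myc and Mycn reads were found together in 6.78% and 15% of promyelinating, 7.55% and 8.77% of cycling and 4.57% and 5.07% of other cells, against 6.03% and 11.1%, 4.17% and 6.46%, and 4.53% and 4.36% from the product of their single shares.

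**Figure D4:**
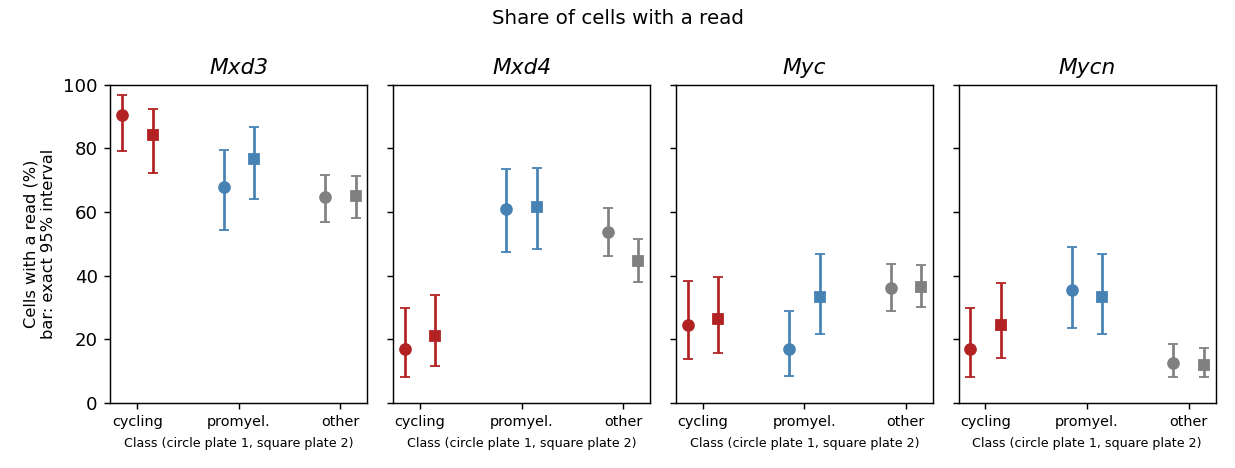
Share of cells with at least 1 read (y axis, percent, bars are exact 95% binomial intervals over cells) of Mxd3, Mxd4, Myc and Mycn in the 3 classes; circles are plate 1 and squares plate 2. Mxd4 is lowest in cycling cells (16.98% and 21.1%) and Mycn highest in promyelinating cells (35.6% and 33.3%) on both plates.

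The balance of activators and repressors was taken as the share of the Myc genes in the summed length-scaled level of the Myc, Mxd, Mxi1 and Mnt genes. It was 3.82% and 12.4% in cycling cells, 29.3% and 41.3% in promyelinating cells and 34.7% and 38.6% in other cells. Per longest transcript it was 3.33% and 10.99%, 24.2% and 34.9%, and 28.4% and 31.8% in the same order. The low share in cycling cells largely follows Mxd3, which made up 96.3% and 94.1% of their Mxd and Mxi1 level. All reads counted for Mxd3 are included, although their origin is uncertain in every class. The Myc genes summed to 8.92 and 25.9 RPKM in cycling cells, against 27.0 RPKM in other cells of each plate. They were thus lower in cycling cells on plate 1 and near the level of other cells on plate 2. The values of both plates rested on few cells. On plate 2, 3 cycling cells held 63.1% of the Myc and 3 held 77.0% of the Mycn reads, and on plate 1 these shares were 57.6% and 75.5%. Without the 3 richest cells of each gene and class, plate 2 kept 14.8 CPM of Myc and 10.2 CPM of Mycn in cycling cells. Other cells of plate 2 kept 55.1 and 3.91 CPM. On plate 1, 7.65 CPM of Myc and 2.28 CPM of Mycn remained in cycling cells, against 48.2 and 4.10 CPM in other cells. In single cells, a Myc or Mycn read was found in 34.0% and 42.1% of cycling, 45.8% and 51.7% of promyelinating and 44.0% and 43.3% of other cells.

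Max and Mlx, the partners, did not pass the test in any class comparison. Max had 4.30 and 4.86 CPM in cycling, 18.01 and 5.45 CPM in promyelinating and 8.35 and 7.42 CPM in other cells. Its reads were found in 80 of 621 cells, and its order between promyelinating and other cells turned between the plates. Mlx had 45.1 and 6.86 CPM in cycling, 26.9 and 25.3 CPM in promyelinating and 23.1 and 38.3 CPM in other cells, with overlap between all classes. Mlx overlaps Psmc3ip, a meiotic recombination gene on the opposite strand, by 385 bases, and was detected in 44.4 to 100% of the cells with a Psmc3ip read but in 0 to 13.3% of the cells without one, by class and plate. Psmc3ip had 145 and 56.2 CPM in cycling cells against 21.6 and 26.8 CPM in other cells, so that reads of this locus are uncertain as well.

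Within the cycling cells, the members were compared between 74 cells in which mitotic genes outweighed replication genes and the remaining 36 cells. Mxd3 had 552 and 510 CPM in the mitotic and 414 and 210 CPM in the replicating cells of plates 1 and 2. Both mitotic values lay above both replicating values, and each exceeded the highest Mxd3 value of a noncycling class, 53.0 CPM, as did the replicating values. The difference did not pass the test (log2 fold change 0.80 ± 0.40, edgeR adjusted p = 0.836). No member (0 of 9) and 0% of 11017 genes passed the edgeR test here (718 at an unadjusted p under 0.05, and 331 with DESeq2 and 7 with limma at an adjusted p under 0.05). Mxd4 turned direction between the plates, with 31.1 and 33.1 CPM in mitotic against 2.33 and 62.3 CPM in replicating cells.

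The wider network was followed in 8 lists of 60 genes, of which 58 were tested. Between cycling and other cells, where 0.978% of all genes tested passed the edgeR test, 0 of the 58 did. These were 21 Myc targets of ribosome formation and metabolism (2 at an unadjusted p under 0.05, as were 10.1% of all genes tested, median log2 fold change 0.31 against -0.07 over all genes), 9 Myc cofactors (3 at an unadjusted p under 0.05), 8 corepressors of the Sin3 and NCoR complexes, 7 genes of Myc turnover, 6 other E-box factors, 3 genes that Myc represses, 2 Mondo and Mga partners and 2 Mondo targets. DESeq2 called 5 of the 58 (Eif4e and Ruvbl2 higher, Cdkn1a, Kat5 and Mitf lower) and limma 6, all higher in cycling cells (Aurka, Eif4e, Nop56, Odc1, Ruvbl2 and Sap30). Both tools also called many more of all genes than edgeR did, and nearly all limma calls were higher in cycling cells, as given at the end.

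Between promyelinating and other cells 2 of the 58 listed genes passed the edgeR test, where 1.78% of all 13289 genes tested did. Cdkn1a, the inhibitor of cyclin-dependent kinases that Myc represses, had 1622 and 1813 CPM in promyelinating, 361 and 431 CPM in other and 165 and 210 CPM in cycling cells, with no overlap between classes. It rose in promyelinating against other cells by 2.20 ± 0.19 on the log2 scale (edgeR adjusted p = 0.000986) and was called in all 10 alternatives. The remaining genes of its list were not called. The 3 listed genes that Myc represses had a median log2 fold change of 0.04, with values from -1.56 to 2.20. Mlxip, the Mondo partner of Mlx that responds to glucose, had 27.3 and 31.5 CPM in promyelinating cells against 109 and 92.8 CPM in other and 112 and 130 CPM in cycling cells. The promyelinating values lay below all others, and Mlxip fell by 1.71 ± 0.34 on the log2 scale (edgeR adjusted p = 0.0474).

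The call of Mlxip was close to the threshold. It was kept in 6 of 10 alternatives and lost with the plate as a block (edgeR adjusted p = 0.0528), and the highest adjusted p was 0.106 with limma. Mlxip and Cdkn1a also overlap predicted genes. The 21 Myc targets held 0 edgeR calls in this comparison (1 at an unadjusted p under 0.05, as were 11.2% of all genes tested, 0 with DESeq2 and 6 with limma). Their median log2 fold change was 0.13 against -0.07 over all genes. The 6 limma calls were all higher in promyelinating cells, as were most of all genes that limma called here. Between cycling and promyelinating cells 4 of the 58 listed genes passed the edgeR test, where 5.93% of all genes did, Mlxip higher and Cdkn1a, Kat5 and Mitf lower in cycling cells, the latter pair named after its values were seen.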

How the data were processed

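Single SCs were sequenced with Smart-seq2, and the authors deposited unnormalised read counts for each gene and well, made without molecular identifiers. The submitters' processing notes name bcl2fastq, STAR 2.6.1c, featureCounts and build GRCm38.p5. The methods of the study name another STAR version and a human assembly, while the gene IDs are mouse IDs, and strand use is not given in the sources used here. Of 25700 IDs, 25587 matched symbols in GENCODE M21, which also gave positions and lengths (RPKM over the union of exons).

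The members and gene lists were chosen with earlier results of these data known, so the tests describe sizes and are not independent support. Reads were summed per plate and class (6 sums, or 4 for split classes) and tested with edgeR 4.0.16 (quasi-likelihood, TMM factors, filter on low counts, Benjamini-Hochberg over all genes). DESeq2 1.42.0, limma 3.58.1 on mean log2(CPM + 1), RLE factors, no filter, the plate as block, minima of 1000 and 2500 genes, class thresholds of 20 and 200 CPM, thinning, each plate alone and the longest transcript as length were alternatives; leaving out the 3 richest cells was chosen after seeing the data. SE is the log2 fold change over the root of F. On simulated data for cycling against other cells (12963 genes, 200 changed) edgeR called 73 genes, 63 correctly, DESeq2 222 genes, 87 correctly, and limma 43 genes, 42 correctly. The simulated limma run used log2 CPM of the sums, and the setting on the mean per cell was not simulated. Simulated counts were drawn independently for each sum, with the spread of each gene as edgeR had estimated it. The sums of a plate come from the same animals, and their deviations correlated by 0.10 to 0.21 over 3713 genes between classes. Named beyond the members were listed genes with an adjusted p under 0.05 and the same direction on both plates in the comparisons with other cells (at most 2 a list and direction), genes with r of at least 0.3 on each plate, and overlapping neighbours, the latter chosen after seeing the data. The 122 wells below 1500 genes entered no comparison. No doublet caller was run. Intervals cover counting error only.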

Additional observations from a re-analysis of the deposited data

Results flagged for a closer look

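The 122 wells left out for fewer than 1500 genes (20955228 reads) held reads of 7 members above the limit of 3 reads (0.143 CPM). Over these wells Mxd4 had 179 CPM, Myc 106.5 CPM, Mxd3 24.1 CPM, Max 11.8 CPM, Mxd1 2.86 CPM, Mlx 0.668 CPM and Mxi1 0.525 CPM, and Mycn, Mnt and Mycl had 0 reads. The reads lay in few wells, 4 wells for Myc, 8 for Mxd4, 11 for Mxd3 and 1 each for Max and Mxd1.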

How the results depend on the processing

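Every called member kept its direction under all alternatives with a test. Mxd3 was called in each of them in both comparisons of cycling cells, while thinning to 100000 reads left 1 of the 2 members called against other cells and 1 against promyelinating cells. Limma on mean log2(CPM + 1) called 1 member between promyelinating and other cells. The plate as a replicate block changed no member's call and left 2, 0 and 2 members called in the 3 class comparisons, but it ended the call of Mlxip (adjusted p = 0.0528). With 1 plate alone no test could be made; the ratios of cycling to other cells on plates 1 and 2 were 3.33 and 3.39 for Mxd3 and -3.00 and -1.89 for Mxd4 (log2).

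The number of genes called moved more. Between cycling and other cells 130 genes were called, against 316 without the filter (226 higher, 90 lower), 214 after thinning, 811 with DESeq2 (445 higher, 366 lower) and 738 with limma (722 higher, 16 lower). Between promyelinating and other cells 237 genes were called, against 521, 364, 1015 and 1200 under the same settings (limma 988 higher, 212 lower, edgeR 65 higher, 172 lower). Mycn, the only member that limma called there, was among these 1200 of 13289 genes tested. Among the 58 listed genes, DESeq2 and limma called 5 and 6 between cycling and other cells. Between promyelinating and other cells they called 3 and 10 of the 58. Between cycling and promyelinating cells the counts were 788, and 1288 without the filter, 2310 with DESeq2 and 2507 with limma (1209 higher, 1298 lower). Mitotic against replicating cells gave 0, and 83 without the filter, 3 after thinning, 331 with DESeq2 and 7 with limma; Atf3-positive against Atf3-negative cells gave 0, and 9 without the filter, 153 with DESeq2 and 8 with limma. On simulated data 135 of 222 DESeq2 calls were false, against 10 of 73 with edgeR and 1 of 43 with limma on log2 CPM of the sums. The simulation used the spread that edgeR estimated and independent sums. It is therefore no neutral comparison of the tools and does not give the share of false calls in the real data. Limma on the mean log2(CPM + 1) per cell, which gave the limma counts above, was not simulated, so its share of false calls is unknown. The cause of the different counts was not tested.

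Only uncalled members changed direction (log2 fold changes, none called). Between cycling and other cells these were Max (0.10, limma), Mxi1 (-0.29 thinned, -0.012 limma) and Mlx (0.084 at 200 CPM, 0.020 limma). Between promyelinating and other cells they were Mxd3 (-0.041 with 2500 genes, -0.27 at 200 CPM, -0.10 thinned), Mxd4 (0.019 with 1000 genes, 0.015 with 2500 genes, 0.80 limma), Mxi1 (0.15 limma), Mnt (0.11 with the replicate block, 0.0071 thinned, 0.20 limma) and Mlx (0.15 limma). Between cycling and promyelinating cells they were Mxi1 (-0.17, limma), Mnt (-0.054, limma) and Mlx (-0.18 with the replicate block, -0.59 with 2500 genes, -0.31 thinned, -0.13 limma). With 2 plates, a difference that missed the threshold is not shown to be absent, and on simulated data 63 of 200 changed genes were found. Members in under 20% of cells, such as Mnt and Max, rest on few cells.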
